A study of Mus musculus with 12 samples.

Results

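Hspa5, Ddit3, Atf4, Xbp1, Trib3, Asns, Chac1, Herpud1, Dnajb9 and Hsp90b1 are 10 genes of the response to endoplasmic reticulum (ER) stress and to amino acid shortage. They were taken by name, as every probe of the deposited table whose gene symbol is one of the 10, which gave 19 probes of 56745 and 10 gene symbols of 27306. Each of the 19 probes was well above background on all 12 arrays, so no member was lost to the filter on dim probes. Hspa5 and Xbp1 had 3 probes each, Ddit3, Atf4, Asns, Herpud1 and Dnajb9 had 2, and Trib3, Chac1 and Hsp90b1 had 1. The RefSeq accession of 18 probes led to the same symbol in the RefSeq gene table of GRCm38.p6, and the remaining probe, A_55_P2713585 for Ddit3, carries only an Ensembl transcript.

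RNA came from C2C12, an immortalized mouse C3H myoblast line that fuses into myotubes when serum is withdrawn. All cells were transfected with siRNA, either a control (siControl) or one against Bach1 (siBach1), a repressor that pairs with small Maf proteins and holds down Hmox1. Day 0 cells were collected before differentiation was induced, and day 2 cells after the change to medium with 2% horse serum, which was made 24 h after transfection. The 4 conditions, siControl and siBach1 at day 0 and at day 2, had 3 one-colour arrays each. Limits of the model are that the silencing was transient, that the study's methods name a single duplex (siBach1-2) for these arrays, and that the line has no muscle fibre, nerve or immune cell around it. Nothing in the labels says whether the replicates were separate cultures, so p-values measure the spread between arrays, which may be technical. In bulk RNA, fewer cells with a transcript and less of it per cell cannot be told apart.

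When unfolded proteins collect in the ER, the sensors Perk, Ire1 and Atf6 start the unfolded protein response: Ire1 splices the Xbp1 transcript, cleaved Atf6 enters the nucleus, and both raise chaperones and degradation factors. Perk and related kinases, which sense amino acid shortage, heme and double-stranded RNA, phosphorylate eIF2alpha, which slows translation in general and favours that of Atf4. Atf4 then activates genes of amino acid supply and, with CHOP (Ddit3), stress effectors, and this arm is called the integrated stress response. The branch that uses Atf6 and Xbp1 is thus read from chaperones and ER-associated degradation (ERAD), and the Atf4 branch from Asns, Trib3 and Chac1. These arrays measure transcript levels, not Xbp1 splicing, phosphorylation or protein.

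Elements tied to these branches were looked for in the promoters of the 10 genes, all of which matched by symbol. The 250 bases before the RefSeq start (GRCm38.p6) were searched on both strands for the ER stress element (CCAAT, 9 bases of any kind, then CCACG), which matched in 2 of the 10 members and in 0.113% of 32851 promoters in the table. The related ERSE-II (ATTGG, 1 base of any kind, then CCACG) matched in 1 member and in 0.0304% of promoters. The C/EBP-ATF response element, searched as TGATGNAA, matched in 3 members and in 3.45% of promoters. Neither the core of the unfolded protein response element, TGACGTGG, nor the core of the Maf element that Bach1 can bind (TGCTGA, 1 base of any kind, then TCA) matched in any member, against 0.563% and 0.353% of promoters. The 5 promoters with a match are shown 5′ to 3′, so that members that carry an element of either branch can be set beside their values, and Ddit3, Atf4, Xbp1, Trib3 and Dnajb9 had no match. Capitals mark the matched letters, which are the ER stress element in Hspa5 and, on each strand once, in Hsp90b1, the C/EBP-ATF element in Asns and, on the reverse strand, in Chac1, and in Herpud1 the C/EBP-ATF element on the reverse strand followed by ERSE-II. No match overlapped another. A match describes letters and not a bound site, and its absence concerns this window only.
Hspa5 (chr2:34771840-34772089, strand +): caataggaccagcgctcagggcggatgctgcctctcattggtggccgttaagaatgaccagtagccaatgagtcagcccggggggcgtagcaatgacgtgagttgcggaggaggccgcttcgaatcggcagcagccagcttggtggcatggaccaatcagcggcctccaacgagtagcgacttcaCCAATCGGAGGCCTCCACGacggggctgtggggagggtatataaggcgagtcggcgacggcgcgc
Hsp90b1 (chr10:86705445-86705694, strand -): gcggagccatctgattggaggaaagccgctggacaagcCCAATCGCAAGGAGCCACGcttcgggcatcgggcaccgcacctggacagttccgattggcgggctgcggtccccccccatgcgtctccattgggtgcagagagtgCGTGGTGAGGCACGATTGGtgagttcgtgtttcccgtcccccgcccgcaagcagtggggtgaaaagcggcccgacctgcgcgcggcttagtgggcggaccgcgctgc
Herpud1 (chr8:94386179-94386428, strand +): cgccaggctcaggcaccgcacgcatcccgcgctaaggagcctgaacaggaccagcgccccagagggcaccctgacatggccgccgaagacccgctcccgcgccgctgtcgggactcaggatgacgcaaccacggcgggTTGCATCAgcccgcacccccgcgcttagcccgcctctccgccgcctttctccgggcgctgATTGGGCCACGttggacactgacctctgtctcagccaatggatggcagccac
Asns (chr6:7693210-7693459, strand -): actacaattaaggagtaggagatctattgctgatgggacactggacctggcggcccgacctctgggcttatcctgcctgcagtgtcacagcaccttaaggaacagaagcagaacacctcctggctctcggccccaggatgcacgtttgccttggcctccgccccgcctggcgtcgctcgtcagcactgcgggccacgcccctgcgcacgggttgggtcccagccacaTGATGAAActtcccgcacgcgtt
Chac1 (chr2:119350992-119351241, strand +): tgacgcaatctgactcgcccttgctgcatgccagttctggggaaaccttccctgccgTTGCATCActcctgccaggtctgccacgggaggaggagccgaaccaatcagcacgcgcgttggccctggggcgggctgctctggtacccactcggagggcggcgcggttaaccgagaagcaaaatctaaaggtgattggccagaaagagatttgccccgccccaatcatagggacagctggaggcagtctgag

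Values are log2 signals minus the 75th percentile of their array, so 0 is the signal below which 75% of its probes lie, and no probe's level is set against another's. Between 47.6% and 58.9% of probes were well above background per array. One slide held replicates 1 and 2 of every condition and a further slide held replicate 3, with a column of the slide for each condition, so column and condition cannot be told apart. One array, siControl day 2 replicate 2, stood apart on several members (Trib3, Ddit3, Chac1 and Asns), and results that rest on it are given with and without it. The silencing showed in the targeted gene: Bach1 was lower in siBach1 cells by a log2 fold change of -1.77 at day 0 and -1.97 at day 2, and Hmox1 was higher by 3.30 and 3.12. Of 10 myoblast and myotube markers, 9 were above background at both days (Myf5 was the exception), against at most 3 of 5 leukocyte, 2 of 5 adipocyte, 2 of 4 neural, 1 of 4 osteoblast and 1 of 4 endothelial markers.

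**Figure D1:**
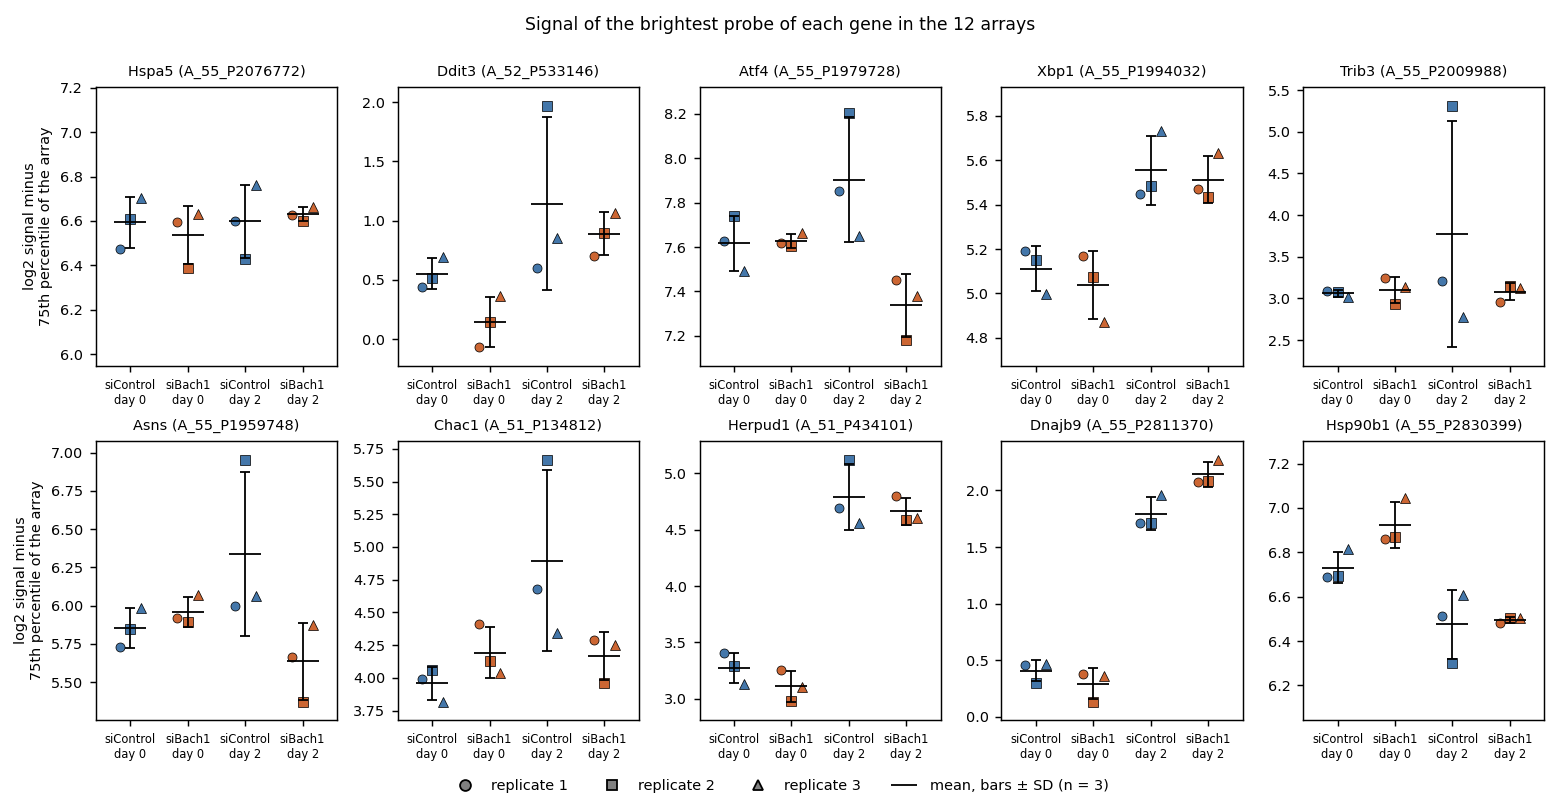
Log2 signal minus the array's 75th percentile (vertical axis, its own range in each panel) for the probe of highest mean signal of each gene, in the 4 conditions. Symbols are the replicates and lines the mean with SD (n = 3). Herpud1, Dnajb9 and Xbp1 are higher in all day 2 arrays than in all day 0 arrays, while Trib3 stands at 5.32 in siControl day 2 replicate 2 and between 2.78 and 3.24 elsewhere.

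Between day 0 and day 2, the degradation factors and Xbp1 went up, the abundant chaperones did not, and the Atf4 branch did not move as a group. In siControl cells 10 of 19 member probes passed an adjusted p of 0.05 in limma, 9 higher and 1 lower, where 53.4% of all 29644 tested probes passed (24.7% higher and 28.7% lower). In siBach1 cells 9 passed, 7 higher and 2 lower, where 56.1% of all probes did (23.8% higher and 32.2% lower). With a fold change of at least 2 in addition, 3 member probes passed in siControl and 4 in siBach1 cells, against 20.0% and 20.5% of all probes. Without siControl day 2 replicate 2, an array described further on, 9 and 11 member probes passed, against 48.3% and 55.9% of all probes. The split of the siBach1 calls depended on scaling: under quantile normalization 11 were higher and none lower, and in siControl cells 9 were higher and none lower.

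Herpud1, an ER membrane protein that assembles the ERAD ligase complex, had the largest change of the members in siControl cells. Its probe A_51_P434101 read 3.40, 3.29 and 3.13 in siControl cells at day 0 and 4.69, 5.12 and 4.56 at day 2. In siBach1 cells the arrays read 3.25, 2.98 and 3.11 at day 0 and 4.80, 4.59 and 4.60 at day 2. Every day 2 array was above every day 0 array with either siRNA. The log2 fold change was 1.52 (SE 0.15, 2.86-fold, limma adjusted p = 1.12e-05) in siControl and 1.55 (SE 0.15, 2.93-fold, adjusted p = 9.02e-06) in siBach1 cells. The second probe, A_55_P2810587, rose by 1.45 and 1.51 on the log2 scale.

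Dnajb9 (ERdj4), a co-chaperone that binds Ire1 and targets clients of Hspa5 for degradation, rose with it. Its probe A_55_P2811370 read 0.46, 0.30 and 0.47 in siControl cells at day 0 and 1.71, 1.71 and 1.96 at day 2. In siBach1 cells it read 0.38, 0.14 and 0.36 at day 0 and 2.08, 2.09 and 2.27 at day 2. The 3 siBach1 arrays at day 2 were the highest of the 12, above the siControl arrays of that day without overlap. The log2 fold change from day 0 was 1.39 (SE 0.11, 2.61-fold, limma adjusted p = 2.55e-06) in siControl and 1.85 (SE 0.11, 3.61-fold, adjusted p = 4.20e-07) in siBach1 cells. The dimmer probe A_66_P133450 gave 0.70 (adjusted p = 0.0172) and 1.21 (adjusted p = 0.000666), and its siControl call was lost without siControl day 0 replicate 2 (0.59, adjusted p = 0.0672), without siControl day 2 replicate 3 (0.63, adjusted p = 0.0556) and under quantile normalization (0.52, adjusted p = 0.0629). With normexp background correction its values were 0.45 and 0.51, both past the threshold.

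Xbp1, the transcription factor spliced by Ire1, rose less, and by similar amounts in both siRNA groups. Its probe A_55_P1994032 read 5.19, 5.15 and 5.00 in siControl cells at day 0 and 5.45, 5.48 and 5.73 at day 2. In siBach1 cells it read 5.17, 5.07 and 4.87 at day 0 and 5.47, 5.44 and 5.63 at day 2. Day 2 was above day 0 in every array for all 3 probes (the others were A_52_P185079 and A_55_P2739653), with log2 fold changes between 0.40 and 0.49. Their limma adjusted p-values lay between 0.00425 and 0.0119, and all 3 probes kept the call in both siRNA groups under each of the 23 alternatives. Under quantile normalization the change of A_55_P1994032 in siBach1 cells was 0.80, against 0.48. The rise of that probe differed by slide. It was 0.30 in siControl and 0.33 in siBach1 cells on the slide with replicates 1 and 2. On the slide with replicate 3 it was 0.74 and 0.76.

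Hspa5 (BiP) and Hsp90b1 (Grp94), the chief chaperones of the ER lumen, whose promoters carry the ER stress element printed above, did not rise with them. Hspa5 probe A_55_P2076772 read 6.47, 6.61 and 6.70 in siControl cells at day 0 and 6.60, 6.43 and 6.76 at day 2, and the groups overlapped. In siBach1 cells the values were 6.59, 6.39 and 6.63 at day 0 and 6.63, 6.60 and 6.66 at day 2. The log2 fold changes of the 3 Hspa5 probes ran from -0.17 to 0.00 in siControl and from -0.01 to 0.09 in siBach1 cells, none past the threshold. For A_55_P2076772 the 95% confidence interval ran from -0.23 to 0.24 in siControl and from -0.14 to 0.33 in siBach1 cells, so a doubling lies outside both. Scaling mattered in siBach1 cells, where quantile normalization gave 0.47 (limma adjusted p = 0.00228), 0.27 (adjusted p = 0.0226) and 0.27 (adjusted p = 0.0347) for the 3 probes.

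Hsp90b1 probe A_55_P2830399 read 6.69, 6.69 and 6.81 in siControl cells at day 0 and 6.51, 6.30 and 6.61 at day 2. In siBach1 cells it read 6.86, 6.87 and 7.04 at day 0 and 6.48, 6.50 and 6.50 at day 2. Day 2 was below day 0 without overlap in both groups. It fell by 0.43 on the log2 scale in siBach1 cells (SE 0.09, limma adjusted p = 0.00280), except under quantile normalization (-0.04, adjusted p = 0.753). In siControl cells it fell by 0.26 (SE 0.09, adjusted p = 0.0416), which passed in 9 of 24 settings and not without siControl day 2 replicate 2 (-0.17, adjusted p = 0.147) or without any of 9 other arrays.

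**Figure D2:**
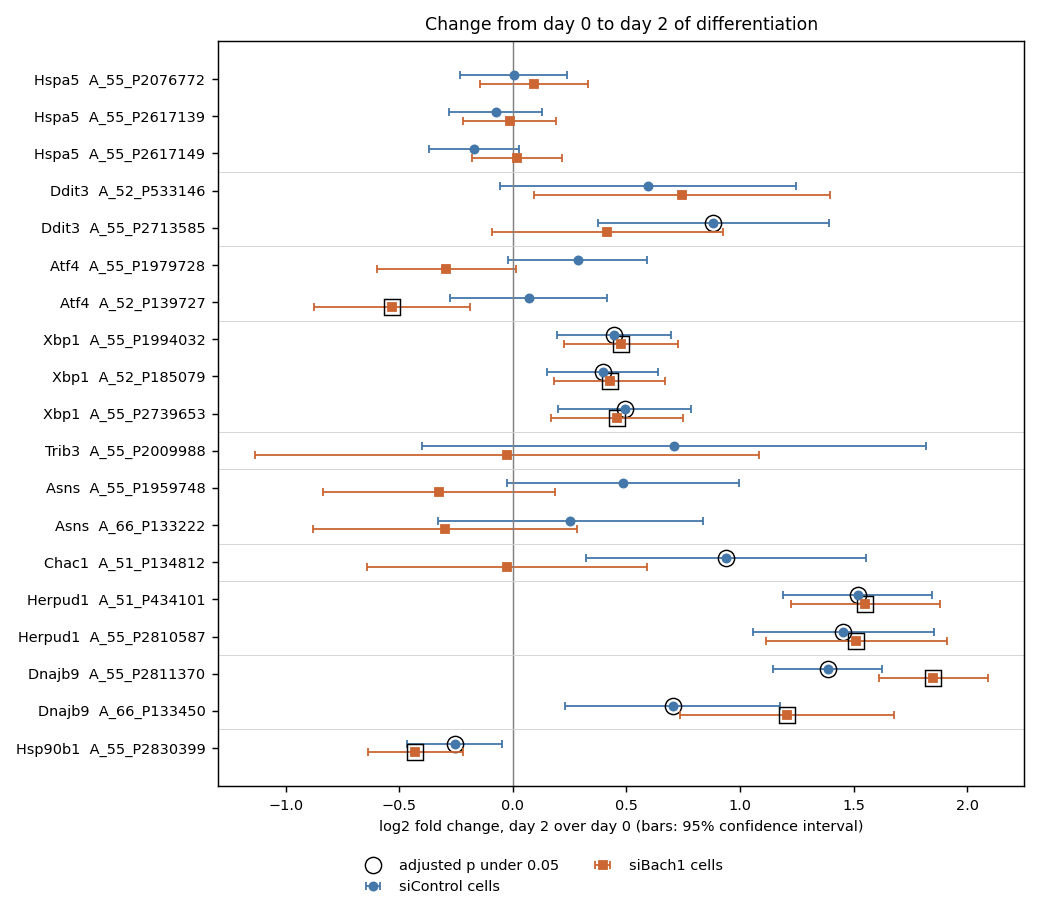
Log2 fold change from day 0 to day 2 (horizontal axis) for each member probe in siControl cells (circles) and siBach1 cells (squares), with 95% confidence intervals from the limma fit and black outlines at an adjusted p under 0.05. Herpud1, Dnajb9 and Xbp1 lie above 0 in both groups, Hsp90b1 below 0, and Hspa5 around 0.

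Atf4, Ddit3, Chac1, Asns and Trib3, the integrated stress response genes, differed more between siRNA groups and arrays. Atf4, whose own transcript rises under some of the stresses that raise its translation, had 2 probes with small changes in siControl cells (0.29 and 0.07, neither past the threshold). In siBach1 cells A_52_P139727 fell by 0.53 on the log2 scale (SE 0.16, limma adjusted p = 0.0135), while A_55_P1979728 gave -0.29 (adjusted p = 0.0947). Under quantile normalization the first was -0.30 (adjusted p = 0.145) and the second 0.12, so the size and for one probe the sign depended on scaling.

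Chac1, a glutathione-degrading enzyme and a sensitive target of Atf4, read 3.99, 4.06 and 3.82 in siControl cells at day 0 and 4.68, 5.67 and 4.34 at day 2. In siBach1 cells it read 4.41, 4.13 and 4.04 at day 0 and 4.29, 3.96 and 4.25 at day 2. It was higher on all 3 siControl arrays of day 2 than on any of day 0, and the siBach1 groups overlapped. It rose by 0.94 on the log2 scale in siControl cells (SE 0.28, limma adjusted p = 0.0153), and by 0.55 (adjusted p = 0.0177) when replicate 2 of day 2 was left out. The call was lost with only the arrays of the comparison (adjusted p = 0.0544) and with the methods' t-test after Benjamini-Hochberg adjustment (adjusted p = 0.135), which did not pass unadjusted either. In siBach1 cells the change was -0.03 (SE 0.28, adjusted p = 0.949). The interaction of siRNA and day, which is the siBach1 change minus the siControl change, was -0.97 (SE 0.39, adjusted p = 0.186) and was not past the threshold.

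The probes of Ddit3, which encodes the pro-apoptotic factor CHOP, disagreed. A_52_P533146 read 0.44, 0.51 and 0.69 in siControl cells at day 0 and 0.60, 1.97 and 0.86 at day 2. In siBach1 cells it read -0.07, 0.14 and 0.36 at day 0 and 0.70, 0.89 and 1.07 at day 2. Its siBach1 groups did not overlap and differed by 0.74 (SE 0.29, limma adjusted p = 0.0518), which became an adjusted p of 0.00159 without siControl day 2 replicate 2, an array whose spread enters the pooled error, and 0.0347 with the replicate number as a block. In siControl cells the change was 0.59 (adjusted p = 0.114), or 0.18 (adjusted p = 0.392) without that array. The other probe, A_55_P2713585, rose in siControl cells by 0.88 (SE 0.23, adjusted p = 0.00767) under all 24 settings and gave 0.42 (adjusted p = 0.149) in siBach1 cells.

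Asns, the asparagine synthetase, and Trib3, a pseudokinase that restrains Atf4 and Akt, did not pass the threshold at either siRNA. The log2 fold change of Asns probe A_55_P1959748 was 0.48 (SE 0.23, limma adjusted p = 0.101) in siControl and -0.32 (adjusted p = 0.260) in siBach1 cells, and that of A_66_P133222 was 0.25 and -0.30. Under quantile normalization A_55_P1959748 passed in siControl cells (0.59, adjusted p = 0.0496) and stood at 0.02 in siBach1 cells. Trib3 gave 0.71 (SE 0.50) and -0.03 (SE 0.50), and the first of these became -0.06 without siControl day 2 replicate 2.

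The wider pathway was read from 8 lists, with 1 probe per gene, the tested probe of highest mean signal. Over all 15636 named genes, 27.7% were called higher and 30.0% lower at day 2 in siControl cells, and 26.7% and 33.2% in siBach1 cells. Of 19 ERAD genes, 9 were higher and 5 lower in siControl cells and 9 and 6 in siBach1 cells, with medians of 0.10 and 0.08 (all genes 0.01 and -0.06). Of 19 chaperones and folding enzymes, 2 were higher and 8 lower in siControl cells and 3 and 9 in siBach1 cells, with medians of -0.25 and -0.28. Without siControl day 2 replicate 2, the siControl counts were 9 higher and 2 lower for ERAD and 2 higher and 5 lower for the chaperones. Among 24 genes of ER translocation and trafficking, 3 were higher in each group, and 9 and 12 were lower.

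Genes that use or make amino acids were mostly lower at day 2 in siBach1 cells. Of 21 genes that charge or export tRNA, the cytosolic tRNA synthetases and the tRNA exporter Xpot, 17 were lower at day 2 in siBach1 cells and none higher, with a median of -0.54. In siControl cells 8 were lower and none higher (median -0.21), or 10 (median -0.26) without siControl day 2 replicate 2. Of 19 enzymes of amino acid synthesis, 10 were lower and 4 higher in siBach1 cells (median -0.58), and 7 lower and 4 higher in siControl cells (median -0.05), which became 11 lower and 4 higher (median -0.41) without that array. The interaction of siRNA and day, which compares these changes directly, called none of the 21 tRNA genes and 3 of the 19 enzymes, 1 higher and 2 lower, where 3.08% of named genes were higher and 2.72% lower. With the replicate number as a block it called 1 and 5. Transporters (6 higher and 6 lower of 17 in siBach1, 4 and 4 in siControl cells), partners and targets of Atf4 and CHOP (3 and 5 of 16, then 5 and 3) and the sensors and kinases (2 and 5 of 13, then 3 and 4) moved both ways.

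Silencing Bach1 changed no member probe at day 0 past an adjusted p of 0.05, where 17.1% of all tested probes passed. An unadjusted limma p under 0.05 was reached by 2 of 19, both for Hspa5, against 31.1% of all probes, and the methods' t-test gave 3 unadjusted and 1 after Benjamini-Hochberg adjustment, all lower. Those 2 Hspa5 probes were lower in all siBach1 arrays than in all siControl arrays. A_55_P2617149 read 4.27, 4.34 and 4.32 in siControl and 4.04, 4.07 and 4.09 in siBach1 cells, a log2 fold change of -0.24 (SE 0.09, limma adjusted p = 0.0905). A_55_P2617139 gave -0.21 (SE 0.09, adjusted p = 0.153) and A_55_P2076772 -0.06 (SE 0.11, adjusted p = 0.768). The Hspa5 probes thus did not give one value. The Ddit3 probes also differed, at -0.41 (adjusted p = 0.389) and 0.36 (adjusted p = 0.319).

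At day 2 the members called were both probes of Atf4, lower in siBach1 cells. These are 2 of 19 probes, where 5.74% of all probes were called higher and 6.29% lower. Neither reached a 2-fold change, where 2.18% of all probes were both called and changed at least 2-fold. A_55_P1979728 read 7.85, 8.21 and 7.65 in siControl and 7.45, 7.18 and 7.38 in siBach1 cells. A_52_P139727 read 3.94, 4.43 and 3.85 in siControl and 3.32, 3.30 and 3.58 in siBach1 cells. The siBach1 arrays were the lower 3 on both probes, without overlap. The log2 fold changes were -0.57 (SE 0.14, limma adjusted p = 0.0252) and -0.67 (SE 0.16, adjusted p = 0.0208), which are 1.48-fold and 1.59-fold lower.

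The Atf4 calls were near the threshold. Without siControl day 2 replicate 2, the highest array on both probes, the values were -0.41 (limma adjusted p = 0.0520) and -0.49 (adjusted p = 0.0390), so that 1 member probe passed, against 10.3% of all probes. A_52_P139727 also missed the threshold without siBach1 day 2 replicate 1 (-0.63, adjusted p = 0.0755) or replicate 2 (-0.62, adjusted p = 0.0673). A_55_P1979728 missed it without siBach1 day 2 replicate 1 (-0.62, adjusted p = 0.05001), replicate 2 (-0.49, adjusted p = 0.0842) or replicate 3 (-0.59, adjusted p = 0.0565), and without siControl day 2 replicate 1 (-0.59, adjusted p = 0.0594). By slide, the differences were -0.71 and -0.87 on the slide with replicates 1 and 2 and -0.27 and -0.27 on the slide with replicate 3. At day 0 the same probes differed by 0.01 and -0.07, and the interaction of siRNA and day was -0.58 (SE 0.19, adjusted p = 0.117) and -0.60 (SE 0.22, adjusted p = 0.146). A silencing effect on Atf4 that differs between the days was thus not shown.

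Asns, Chac1 and Trib3, the members from which the Atf4 branch is read here, did not pass the threshold at day 2. Asns read 6.00, 6.95 and 6.06 in siControl and 5.66, 5.37 and 5.87 in siBach1 cells on A_55_P1959748, without overlap, a log2 fold change of -0.70 (SE 0.23, limma adjusted p = 0.0755). Its probe A_66_P133222 overlapped and gave -0.58 (SE 0.26, adjusted p = 0.182), or -0.22 (adjusted p = 0.412) without siControl day 2 replicate 2. Chac1, whose values are given above, differed by -0.73 (SE 0.28, adjusted p = 0.120), also without overlap. Trib3 read 3.21, 5.32 and 2.78 against 2.96, 3.15 and 3.12 and differed by -0.69 (SE 0.50, adjusted p = 0.421), with overlap. The differences of A_55_P1959748, Chac1 and Trib3 were -0.39, -0.34 and 0.08 without siControl day 2 replicate 2. Ddit3 gave -0.26 (adjusted p = 0.640) on A_52_P533146 and -0.10 (adjusted p = 0.832) on A_55_P2713585, both with overlap, and 0.16 and 0.05 without that array, so Trib3 and both Ddit3 probes took the other sign.

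Dnajb9 lay on the other side. Probe A_55_P2811370 was higher in siBach1 cells at day 2 by 0.35 (SE 0.11, limma adjusted p = 0.0628), with no overlap, and by 0.24 (adjusted p = 0.524) on A_66_P133450. With the replicate number as a block, the first had an adjusted p of 0.0144, and its interaction of siRNA and day, 0.46 (SE 0.15, adjusted p = 0.111), had one of 0.0284. That was the only member probe called for the interaction with the block, where 13.0% of all probes were. No member passed without it, where 4.57% of all probes did, although 5 of 19 reached an unadjusted limma p under 0.05, against 21.7% of all probes. Quantile normalization also called this Dnajb9 probe at day 2 (0.39, adjusted p = 0.0325) and 1 Atf4 probe, so that 1 call was higher and 1 lower. Herpud1, Xbp1 and Hsp90b1 differed by at most 0.13 in size at day 2 between the siRNAs, with intervals inside -0.46 to 0.36.

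**Figure D3:**
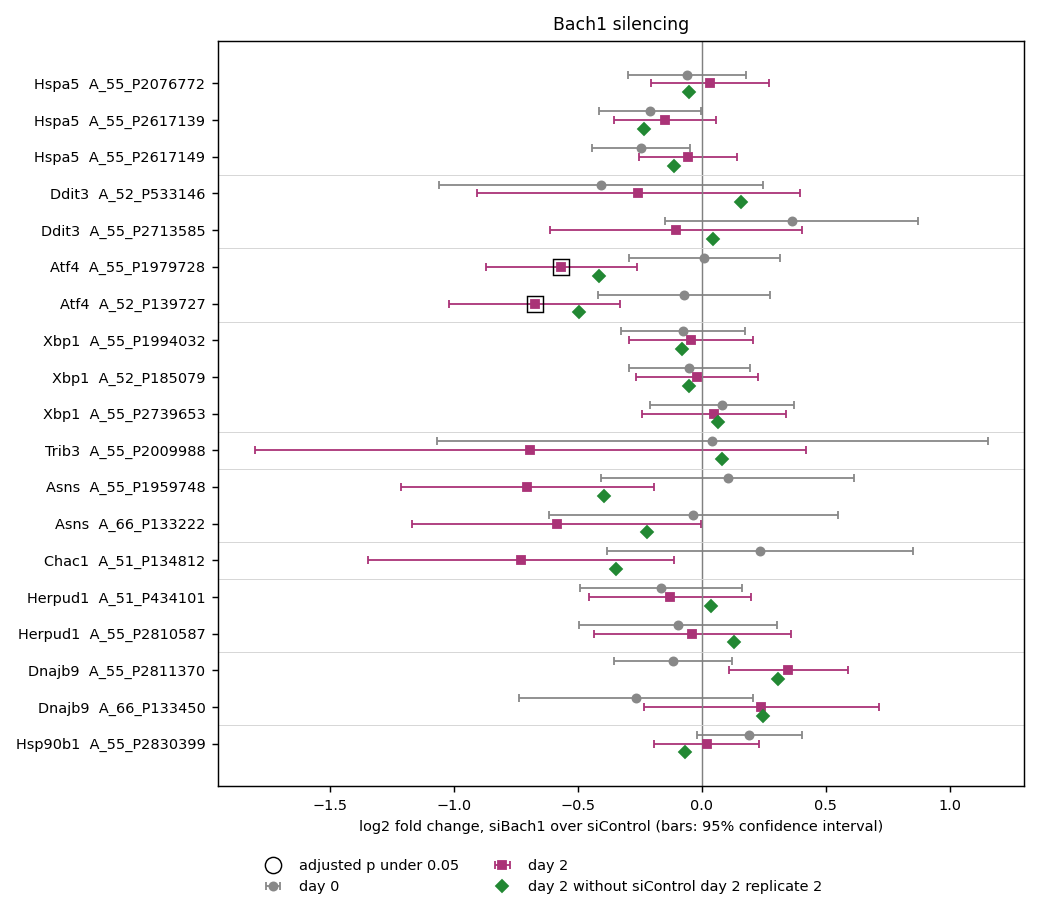
Log2 fold change of siBach1 over siControl cells (horizontal axis) for each member probe at day 0 (circles) and day 2 (squares), with 95% confidence intervals from the limma fit, black outlines at an adjusted p under 0.05, and diamonds for day 2 without siControl day 2 replicate 2. Only the 2 Atf4 probes at day 2 are outlined, and the diamonds of Trib3, Asns and Chac1 lie closer to 0 than their squares.

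Silencing called genes in most of the pathway lists, and their numbers are to be set against the shares over all named genes. Of all named genes, 10.0% were higher and 9.86% lower at day 0, and 6.37% and 7.43% at day 2. Among the sensors and kinases, Nck1, an adaptor that aids eIF2alpha dephosphorylation, rose at both days (0.61, limma adjusted p = 0.000537, and 0.48, adjusted p = 0.00402). Atf6, the sensor itself, fell by 0.34 on the log2 scale at day 0 (adjusted p = 0.0266) and by 0.56 at day 2 (adjusted p = 0.00411). In all, 4 rose and 2 fell of 13 at day 0, and 2 rose and 1 fell at day 2.

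In the ER lists, 4 of 19 ERAD genes rose and 2 fell at day 0, and 1 rose and 2 fell at day 2, or 2 and 3 with the replicate number as a block. Erlec1, a lectin that reads glycans of ERAD clients, rose by 0.60 and 0.61 on the log2 scale (adjusted p = 0.000676 and 0.00149), Edem1 fell by 0.44 and 0.50, and Derl1, a channel component, fell by 0.72 at day 0. For translocation and trafficking, 3 of 24 rose and 4 fell at day 0, or 5 and 4 with the replicate number as a block. The largest of these changes were in Kdelr3, a receptor that returns chaperones to the ER, which fell by 1.10 (adjusted p = 0.000119), and in the signal peptidase subunit Spcs3, which fell by 0.85 (adjusted p = 0.000144). At day 2, 1 rose and 5 fell, among them Kdelr3 by 0.45 and Spcs3 by 0.33 (adjusted p = 0.0341, or 0.0831 without siControl day 2 replicate 2). Without siControl day 2 replicate 2 none rose and 3 fell at day 2, and with the block 2 rose and 7 fell. None of 19 chaperones passed at day 0 and 2 did at day 2, Sdf2l1 higher (0.60, adjusted p = 0.0250) and Mesdc2 lower (-0.26, adjusted p = 0.0254), and neither without siControl day 2 replicate 2 (adjusted p = 0.0726 and 0.0592). With the replicate number as a block, 4 chaperones passed at day 0, all higher, and 4 at day 2, 2 in each direction.

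On the amino acid side, 3 of 19 synthesis enzymes rose at day 0 and none fell, led by the transaminase Gpt2 (1.04, limma adjusted p = 0.00203), and with the replicate number as a block 3 rose and 2 fell. The glutamine synthetase Glul rose at both days (0.43, adjusted p = 0.0283, and 0.91, adjusted p = 0.00127). At day 2, 2 rose and 4 fell. Sdsl, a serine dehydratase relative, then rose by 0.98 (adjusted p = 0.000924). Shmt2 of mitochondrial serine metabolism fell at day 2 by 0.77 (adjusted p = 0.0385), or by 0.50 (adjusted p = 0.0561) without siControl day 2 replicate 2. Without that array 2 rose and 2 fell. Of 17 transporters, 2 rose and 2 fell at each day, and 4 fell at day 0 with the block. Slc43a1 rose by 1.18 at day 2 (adjusted p = 0.00253) and Slc43a2 at both days (0.60 and 0.79), both carriers of large neutral amino acids. Slc1a5, which takes up glutamine, fell by 0.93 at day 0 (adjusted p = 0.0226) and by 0.83 at day 2 (adjusted p = 0.0478), where the value without that array was -0.51 (adjusted p = 0.0616).

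Among the tRNA synthetases, Aars fell by 0.62 at day 0 (limma adjusted p = 0.00755) and by 0.83 at day 2 (adjusted p = 0.00313). In that list 1 rose and 1 fell at day 0, and 3 fell at day 2, the others being Gars and Kars, which missed the threshold without that array. Of 16 partners and targets of Atf4 and CHOP, 2 rose and 1 fell at day 0 and none rose and 3 fell at day 2, with medians of 0.19 and -0.37 (all genes 0.08 and -0.03). Those that fell at day 2 were Fgf21, a secreted stress hormone (-1.65, adjusted p = 0.0363, and -1.32, adjusted p = 0.105, without that array), Stc2 (-0.80, adjusted p = 0.0113) and Ddit4, an inhibitor of mTORC1 (-0.41, adjusted p = 0.0323). Without siControl day 2 replicate 2, 4 rose and 3 fell at day 0, 1 rose (Cebpb, 0.55, adjusted p = 0.0211, named after its value was seen) and 3 fell at day 2, and the day 2 median was -0.17. With the replicate number as a block, 3 rose and 2 fell at day 0 and 1 rose and 4 fell at day 2.

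That array stood apart in the Atf4 branch and, but for Herpud1, not in the ER branch, a pattern noticed in these values and so described with no test. Each array was set against the mean of the other 2 of its condition. On siControl day 2 replicate 2, 4 of 19 member probes were at least 1 log2 unit higher, where 1.04% of all tested probes were, and on none of the other 11 arrays did a member probe reach that, where 0.641% to 3.75% of all probes did. Trib3 was 2.32 higher (4.99-fold), at place 18 of 29644 probes. Ddit3 was 1.24 and 0.46 higher on its 2 probes, Chac1 1.16, Asns 0.92 and 1.10, and Atf4 0.46 and 0.53. The 0.46 of Ddit3 probe A_55_P2713585 was not particular to this array, as it was 0.77 higher on siBach1 day 0 replicate 3. Dnajb9 probe A_66_P133450 was 0.71 higher there. The Atf4 probes were at most 0.18 and 0.27 higher on any other array.

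Herpud1, of the ER branch, was 0.50 higher on each probe. Hspa5, Hsp90b1, Xbp1 and Dnajb9, in contrast, lay between -0.26 and 0.04. The spread of all probes on this array (SD of the differences 0.36) was inside the range of the other arrays (0.29 to 0.52). On Trib3, Chac1 and Asns, which were picked as high on this array, replicates 1 and 3 of the condition were closer to each other. Trib3 read 3.21 and 2.78 there, Chac1 4.68 and 4.34, and Asns 6.00 and 6.06. Over all probes it was replicate 3 of the condition that had the largest SD of the differences. That SD was 0.44, against 0.36 for replicate 2 and 0.31 for replicate 1.

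**Figure D4:**
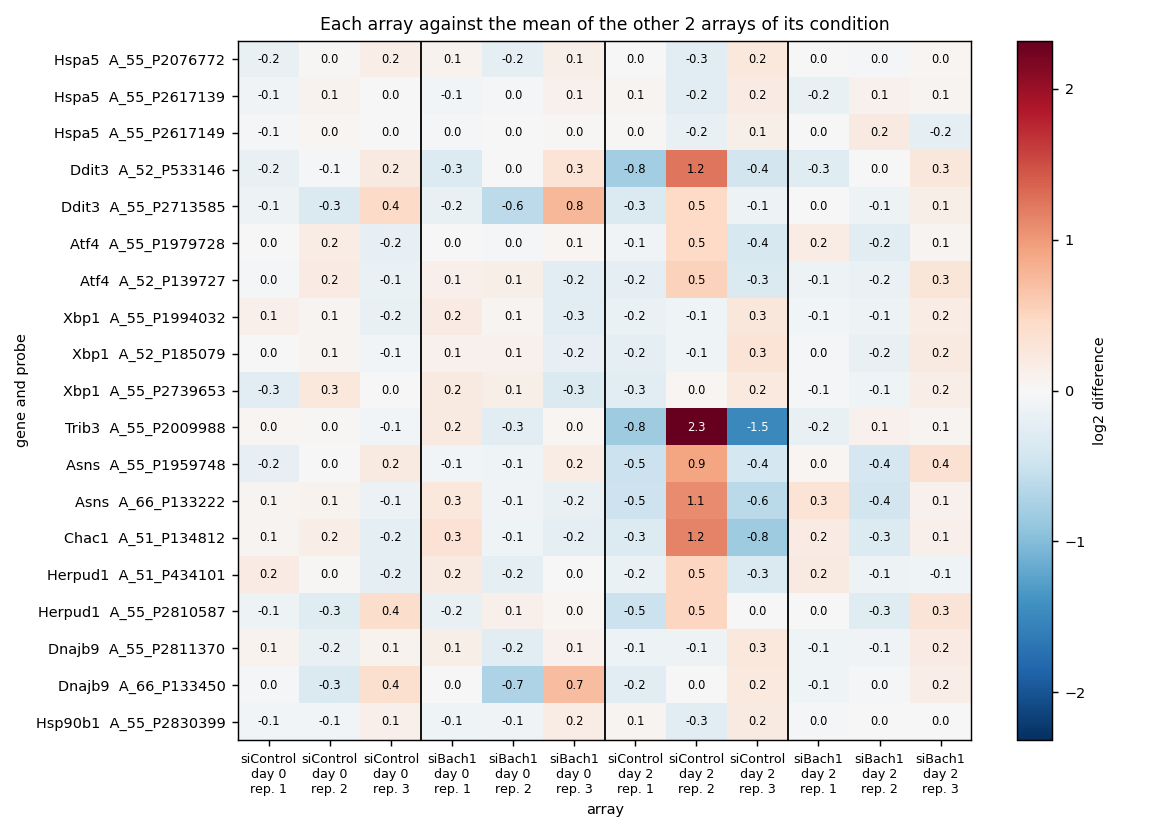
Log2 difference of each array from the mean of the other 2 arrays of its condition (colour and printed value), for each member probe (rows) and array (columns). The column of siControl day 2 replicate 2 holds the highest values of Trib3 (2.3), Chac1, Asns, Atf4 and Herpud1 and of Ddit3 probe A_52_P533146. The negative values beside it follow in part from its place in the mean they are set against.

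The lists, which were chosen with earlier results of these data known and so are no independent support, showed the same division. Of the 15636 named genes, 6.29% were at least 0.5 log2 units higher on this array than the mean of replicates 1 and 3, with a median of 0.00. Of 16 partners and targets of Atf4 and CHOP 9 were (median 0.52), as were 10 of 19 amino acid synthesis enzymes (median 0.52), 5 of 17 transporters (median 0.19) and 3 of the 21 tRNA synthetase and exporter genes (median 0.31). None of 13 sensors and kinases, none of 19 ERAD genes and none of 24 translocation genes were, and 1 of 19 chaperones was (Ero1l, 0.63). The median of the chaperones was -0.17.

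Chosen after their values were seen, the genes with the largest differences on the lists were Vldlr, a lipoprotein receptor (2.40), Cth, which makes cysteine (2.21), Slc7a11, the cystine importer (2.03), Aldh1l2 of mitochondrial folate metabolism (1.41), the stress factor Atf3 (1.29) and the serine synthesis enzyme Psph (1.07). Of these, Vldlr and Slc7a11 were not well above background on all 12 arrays, so their log2 differences are less certain, while Cth was. The metallothionein Mt2, outside the lists and well above background on all 12 arrays, was 3.04 higher on the same array. Larger differences outside the lists included Lrrc41 (4.46), Car6 (3.26) and Fabp4 (3.25), none of them well above background on all 12 arrays.

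**Figure D5:**
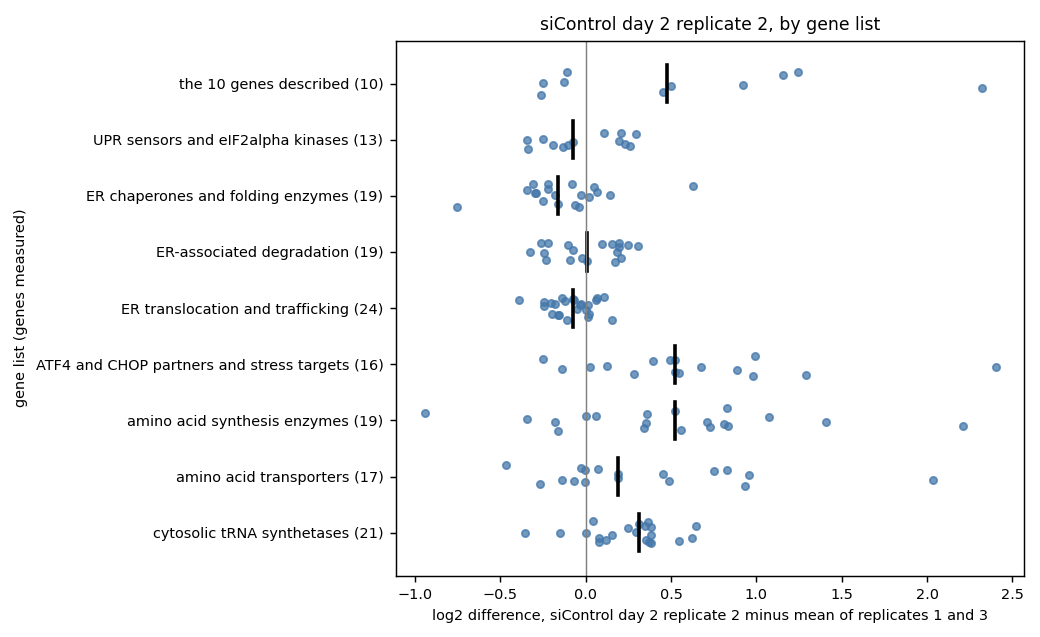
Log2 difference between siControl day 2 replicate 2 and the mean of replicates 1 and 3 (horizontal axis) for each measured gene of the members and the 8 lists (rows, with the number of genes). Points are genes, with vertical scatter for legibility, and black bars are medians, at 0.52 for the Atf4 and CHOP list and the synthesis enzymes and at -0.17 for the chaperones.

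Likeness among the members is given as a description over 12 arrays that share conditions and slides. Herpud1 and Dnajb9 had a Pearson r of 0.95 and Xbp1 and Herpud1 one of 0.88, and over the 11 arrays without siControl day 2 replicate 2 these were 0.98 and 0.90. Hsp90b1 ran opposite to Herpud1, at -0.92 and -0.89. Among the Atf4 branch, Trib3 and Chac1 had an r of 0.88 over 12 arrays and 0.15 over 11, and Trib3 and Asns 0.82 and -0.16. Atf4 and Asns had 0.88 and 0.72. For Asns and Chac1 r was 0.82 and 0.30, for Atf4 and Chac1 0.79 and 0.46, for Ddit3 and Asns 0.59 and -0.26, and for Ddit3 and Chac1 0.67 and -0.09. Ddit3 ran closer to Herpud1 (0.75 and 0.73) and Dnajb9 (0.64 and 0.80) than to Atf4 (0.36 and -0.48), and Chac1 over 11 arrays closer to Herpud1 (0.51) than to Asns.

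Outside the members, the genes most like Atf4 over the 12 arrays were Eif4ebp1 (r = 0.92), the translation repressor 4E-BP1, and Il12rb2 (0.85). Those most like Asns were Ndrg1 (0.97) and Slc3a2 (0.95), the heavy chain of amino acid carriers, and the one most like Chac1 was Atf5 (0.94). For Ddit3 they were Sult2a8 (0.94) and Kxd1 (0.90), and for Trib3 they were 2900001G08Rik (0.85) and Olfr45 (0.84). Herpud1 was most like Hecw2 and Naglu (0.99 each), Dnajb9 like Psg16 (1.00) and Ucp2 (0.99), and Xbp1 like Filip1l (0.97) and Ppp4r1l-ps (0.96). Hsp90b1 was most like Ube2k and Rbm26 (0.98 each), and Hspa5, which hardly varied, like C130033p17rik (0.90) and Arhgef10 (0.87). Over the 11 arrays without siControl day 2 replicate 2, only Hspa5 kept the same pair. Trib3 was then most like Zbtb42 (0.83) and Ccdc89 (0.82), and Ddit3 like Hipk2 (0.94) and Afmid (0.93). Chac1 was most like Ube2r2 (0.93) and Pls3 (0.92). For Atf4 the pair was Fxr2 (0.89) and Eif4ebp1 (0.84), and for Asns it was Ndrg1 and Ehd2 (0.94 each).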

How the data were processed

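C2C12 RNA was hybridized to 12 one-colour Agilent mouse arrays (Cy3, SurePrint G3 8x60K). The scanner files hold intensity values that the authors' Feature Extraction software had background-subtracted. Its version is 9.1 per the submitters' processing notes, while the scanner headers give a different one. The authors' GeneSpring table holds deposited log2 values shifted to each array's 75th percentile and centred on each probe's median; they were an alternative. Control and outlier spots were removed, spots of a probe averaged as log2, and the 75th percentile subtracted. A probe was tested if well above background on all 3 arrays of a condition, which left 29644. Limma 3.58.1 (R 4.3.3; Python 3.11 otherwise) fitted 4 conditions at once, with Benjamini-Hochberg adjustment over all tested probes, a threshold of 0.05 and 95% confidence intervals. The fit was tested on simulated data. The number of arrays limits precision.

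Replicate numbers come from the labels. Deviations from the condition means correlated at r from 0.142 to 0.595 between same-numbered arrays (18 pairs). For the other 36 pairs r ran from -0.443 to 0.265, so the ranges overlap. Centring on the condition mean itself lowers r in those other pairs. Same-numbered arrays also shared a slide and a row, so these values do not show that cultures were paired. The replicate number as a block was 1 of 23 alternatives, beside scaling, background correction, filter, slide, variance prior, the methods' t-test and each array left out. Every member probe is named, those of Trib3 and Chac1 by gene alone, as each has 1 probe. In the 8 lists, up to 3 called genes of largest change per list and silencing comparison are named, and for each member the 2 genes of highest Pearson r, of which 1 is not reported here. Members and lists were chosen with earlier results of these data known. Probes carry the names of the array's design. Promoters are RefSeq sequences of GRCm38.p6, and no array coordinates were used.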

Additional observations from a re-analysis of the deposited data

How the results depend on the processing

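The number of member probes called for silencing at day 0, none in the fit as reported, was 1 with normexp background correction, 1 with the methods' t-test after Benjamini-Hochberg adjustment and 3 with that test unadjusted. For silencing at day 2, 2 as reported, it was 0 with no filter on dim probes, 0 with only the arrays of the comparison, 0 with the methods' t-test after adjustment, 0 with a 2-fold change required in addition, and 4 with a robust variance prior with trend. With each array left out in turn it ran from 0 (without siBach1 day 2 replicate 1, for example) to 4 (without siControl day 2 replicate 3). A 2-fold change required in addition left 3 of 10 for the day in siControl cells and 4 of 9 in siBach1 cells. For the interaction of siRNA and day, none as reported, the replicate block gave 1 and the slide block 1, each time Dnajb9, and the replicate block moved no other of these 5 counts by over 1.5 times. One called value took the other sign: Hspa5 on A_55_P2617139 from day 0 to day 2 in siBach1 cells was 0.27 under quantile normalization (limma adjusted p = 0.0226), against -0.01. Another 80 values changed sign with neither value past the threshold, the largest as reported being 0.73 in size. Normexp moved the median of all probes to 0.11 for silencing at day 0 and to -0.13 for the interaction, beyond the 0.1 within which every other scaling kept it. Where a call was lost, the cause was not tested beyond what the fewer arrays or the larger number of probes imply. A p that misses the threshold with 3 arrays a condition does not show that levels were alike.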
